A study of Mus musculus with 4 samples.

Results

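The integrin and laminin chains are the subunits of the cell's main matrix receptors and of the protein network that underlies epithelia and vessels. They were taken here as the genes of the array table whose symbol names an integrin alpha chain, an integrin beta chain or a laminin alpha, beta or gamma chain, and they numbered 35 of 22180 genes tested. Of these, 25 were integrin chains and 10 laminin chains, and 36 rows of the table named them, since only Itgav had 2. Some other chains of these families were not analysed here. Messenger RNA was measured on Mouse Gene 2.1 ST arrays in the livers of male wild-type C57BL/6J mice, an inbred strain, that were put on a diet at 6 weeks of age. MCD diet mice (2 samples) received food lacking methionine and choline for 20 weeks, which is a common way to bring about a fatty, inflamed liver in mice. Normal diet mice (2 samples) were fed normal food for the same time. Both groups were otherwise alike in genotype, strain, sex and starting age. Nothing in the labels says whether a sample held the RNA of 1 animal, so the p-values measure only the spread between these samples, which may be technical.

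An integrin is a pair of an alpha and a beta chain that spans the plasma membrane, binds matrix proteins or partner proteins on other cells with its head, and holds the actin cytoskeleton through adaptor proteins at its tail. Some chains are made by leukocytes, where they serve adhesion to vessel walls and the uptake of complement-coated particles, others bind collagen, fibronectin or vitronectin on many cell types, and some are typical of epithelia. A laminin is a trimer of an alpha, a beta and a gamma chain and forms the backbone of basement membranes, which the normal liver holds around bile ducts and larger vessels but not as a continuous sheet along the sinusoids.

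The deposited values are log2 signals, with a base inferred from their range, and had array medians of 2.57 and 2.63 in MCD diet livers and 2.63 and 2.65 in normal diet livers. The number of arrays limits the precision, and signal over background was not analysed here. Of the 35 chains, 11 lay at or below the median signal of all genes (2.95) in normal diet livers, and the size of a difference that starts from such a signal is uncertain. Itgax, Itgam, Itga2 and Lama2 were among these 11. The hepatocyte genes Alb and Ttr, defining transcripts of liver, had signals between 11.49 and 11.99 in MCD diet livers and between 11.66 and 12.04 in normal diet livers. Of 5 hepatocyte markers 0 rose and 1 fell in limma at an adjusted p under 0.05 (0 and 3 at an unadjusted p under 0.05). The gene that fell was Apoa1, an apolipoprotein (by 0.50 ± 0.12 log2 units, limma adjusted p = 0.0493). The arrays hold whole liver, so more cells of a type and more RNA per cell cannot be told apart.

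Transcripts of 16 of the 35 chains rose in MCD diet livers and 0 fell, in limma at an adjusted p under 0.05 (Benjamini-Hochberg over all genes tested). This share of 45.7% stood beside 9.98% of all genes called in either direction, 6.37% of them higher and 3.62% lower. At an unadjusted p under 0.05, 22 chains were higher and 1 was lower, where 13.8% of all genes were higher and 10.4% lower, the background for every such count in what follows. The median log2 difference of the chains, MCD diet minus normal diet, was 0.53, against -0.03 over all genes tested. The 2 MCD diet arrays lay above both normal diet arrays for 23 chains, below them for 4 and overlapped for 8, while 54.2% of all genes had arrays that did not overlap between the diets (MCD diet higher in 25%, lower in 29.2%). By class, 5 of 8 leukocyte chains, 4 of 12 matrix-binding chains, 3 of 5 epithelial chains and 4 of 10 laminin chains rose. Their median differences were 0.95, 0.27, 1.14 and 0.61. Whether the classes differ from each other was not tested. Without normal diet replicate 2 the count of called chains was 10, and without each of the other arrays it was 11 to 14.

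**Figure D1:**
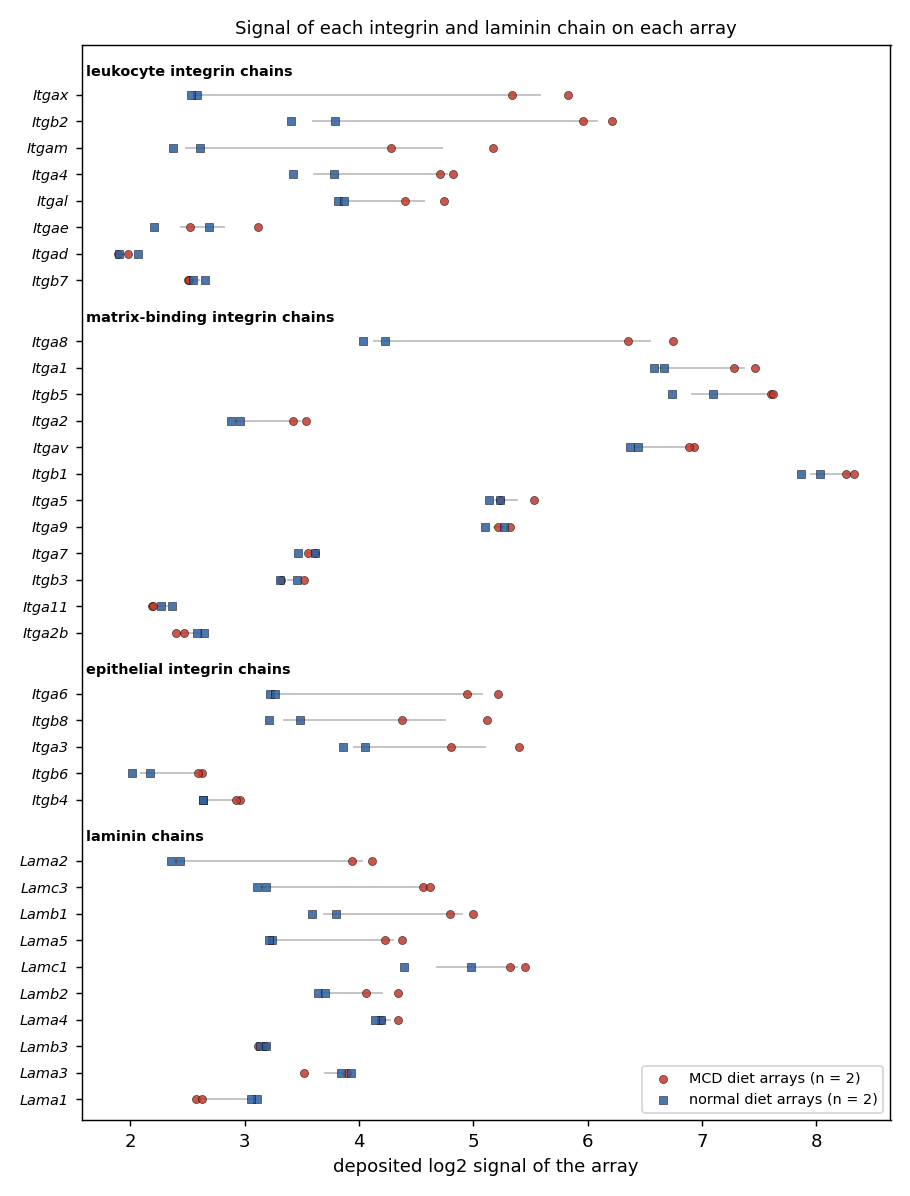
Deposited log2 signal (x axis) of each of the 35 chains (rows, grouped by class and ordered by difference) on the 2 MCD diet arrays (red circles) and the 2 normal diet arrays (blue squares), with a grey line joining the means of the diets. The widest gaps are those of Itgax, Itgb2, Itga8 and Itgam, where both MCD diet arrays lie far to the right of both normal diet arrays.

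The starts of 5 called chains are shown first, as examples from each class. The sequences are RefSeq windows of 300 bases on GRCm38.p6, 250 before and 50 after an annotated start, for the called chain with the largest difference in each class among those that the table holds (for the epithelial class Itgb8, where Itga6 had the larger difference), and for Itgam, the direct neighbour of Itgax. Each is given 5′ to 3′ on the strand of the gene, with GAGGAA (the core bound by PU.1, a transcription factor of myeloid cells) and TGANTCA (the site of the AP-1 factors) in capitals on either strand. Itgax lies at chr7:128129300-128129599 (plus strand), Itgam at chr7:128062390-128062689 (plus), Itga8 at chr2:12301895-12302194 (minus), Itgb8 at chr12:119238227-119238526 (minus) and Lama2 at chr10:27616893-27617192 (minus).
Itgax: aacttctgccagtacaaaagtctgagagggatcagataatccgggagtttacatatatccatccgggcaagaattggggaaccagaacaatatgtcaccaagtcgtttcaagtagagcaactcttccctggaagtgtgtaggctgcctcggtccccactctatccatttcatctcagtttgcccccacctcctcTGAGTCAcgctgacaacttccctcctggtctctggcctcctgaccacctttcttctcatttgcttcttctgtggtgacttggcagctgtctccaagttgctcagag
Itgam: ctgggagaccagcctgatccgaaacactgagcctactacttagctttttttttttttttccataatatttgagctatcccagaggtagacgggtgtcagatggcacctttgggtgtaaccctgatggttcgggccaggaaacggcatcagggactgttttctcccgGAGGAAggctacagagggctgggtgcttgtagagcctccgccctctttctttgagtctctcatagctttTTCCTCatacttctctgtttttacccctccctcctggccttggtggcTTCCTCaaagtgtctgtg
Itga8: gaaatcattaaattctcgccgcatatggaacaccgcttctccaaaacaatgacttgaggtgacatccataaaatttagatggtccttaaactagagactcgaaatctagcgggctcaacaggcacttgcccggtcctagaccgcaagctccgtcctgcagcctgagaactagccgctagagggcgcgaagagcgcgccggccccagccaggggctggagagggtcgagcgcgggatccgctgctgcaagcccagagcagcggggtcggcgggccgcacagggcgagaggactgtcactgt
Itgb8: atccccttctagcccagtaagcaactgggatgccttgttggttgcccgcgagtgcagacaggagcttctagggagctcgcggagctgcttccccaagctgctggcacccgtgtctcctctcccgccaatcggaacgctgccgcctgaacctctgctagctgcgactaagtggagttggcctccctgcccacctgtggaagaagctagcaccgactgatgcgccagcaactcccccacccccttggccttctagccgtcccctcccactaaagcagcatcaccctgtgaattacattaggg
Lama2: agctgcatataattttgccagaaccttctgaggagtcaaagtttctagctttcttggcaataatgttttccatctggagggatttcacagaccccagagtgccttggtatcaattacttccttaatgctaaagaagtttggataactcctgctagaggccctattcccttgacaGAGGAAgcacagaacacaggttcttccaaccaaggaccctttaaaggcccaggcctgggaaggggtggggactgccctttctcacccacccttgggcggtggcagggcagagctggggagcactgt
The window of Itgam held GAGGAA 3 times, beginning 84 bases before the start on the plus strand, 15 bases before it on the minus strand and at base 33 after it on the minus strand. In Itgax, TGANTCA, which reads alike on both strands, began 56 bases before the start. The window of Lama2 held GAGGAA once, beginning 76 bases before the start on the plus strand. The start used for that window lay 249 bases from the start of Lama2 in the RefSeq gene table. This distance was 24 for Itgax, 41 for Itga8 and 0 for Itgam and Itgb8. Neither motif was found in the windows of Itga8 and Itgb8, and no marked sites overlapped each other. A window was at hand for 22 of the 35 chains, 25 windows in all. GAGGAA was found in 14 of these 25 (56.0%), against 28.3% of the 32851 windows of all genes, and TGANTCA in 3 (12.0%), against 7.8%. GGAATG, the site of TEAD factors, was in 2 (8.0% against 14.7%), GGGCGG, bound by SP1 and KLF factors, in 12 (48.0% against 35.7%), and the E-box CAGGTG in 8 (32.0% against 20.2%). Among called chains, Itga3, Itgam, Lama2, Lama5 and Lamb1 held GAGGAA, and Itga1, Itga2, Itga4, Itga8, Itgax, Itgb5 and Itgb8 did not. Every chain without a call that had a window held it, except Itga9. The shares are a description over few windows, and neither base composition nor a difference between called and other chains was tested.

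Leukocyte chains held 3 of the 4 largest differences of the family, and all 5 called ones rose. Itgax encodes CD11c, the alpha chain of a complement-binding integrin of macrophages and dendritic cells. Its log2 signals were 5.83 and 5.34 in MCD diet livers, against 2.58 and 2.53 in normal diet livers. Both MCD diet arrays stood far above both normal diet arrays, and the normal diet signal was dim. The log2 difference was 3.03 ± 0.18 (8.17-fold; limma adjusted p = 0.000742), where the number after ± is, here and in what follows, the standard error from the fit to 2 arrays of each diet. It ranked 56 among the rises of all genes. Itgb2 encodes CD18, the beta chain that Itgal, Itgam, Itgax and Itgad share. It had signals of 6.21 and 5.96 in MCD diet livers, against 3.79 and 3.41 in normal diet livers. The arrays of the diets were clearly apart, with a log2 difference of 2.48 ± 0.18 (5.59-fold; limma adjusted p = 0.00129). Itgam encodes CD11b, which with CD18 makes up complement receptor 3. Its signals were 5.17 and 4.28 in MCD diet livers, against dim signals of 2.61 and 2.37 in normal diet livers. The MCD diet arrays differed from each other by 0.89, the widest gap within a diet among the 35 chains, yet both lay above the normal diet arrays (log2 difference 2.23 ± 0.29, limma adjusted p = 0.00752).

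Itga4 encodes the alpha chain of VLA-4, which binds VCAM-1 and fibronectin and pairs with the beta chains Itgb1 and Itgb7. It had signals of 4.71 and 4.82 in MCD diet livers, against 3.78 and 3.43 in normal diet livers, a log2 difference of 1.16 ± 0.16 (limma adjusted p = 0.00891). Itgal encodes CD11a, the alpha chain of the leukocyte integrin LFA-1. Its signals were 4.74 and 4.40 in MCD diet livers, against 3.82 and 3.87 in normal diet livers, and the gap was narrower (0.73 ± 0.15, limma adjusted p = 0.0359). Itgal lost its call when MCD diet replicate 1 or any normal diet array was left out, where the limma adjusted p lay between 0.122 and 0.133, under quantile normalization (0.0634), with a replicate block (0.0535) and with a 2-fold minimum. The other 3 leukocyte chains did not pass. Itgae encodes CD103, which binds E-cadherin on epithelial cells, and differed by 0.37 (95% interval -0.23 to 0.98) with overlapping arrays. Itgb7, its beta chain, differed by -0.09 (-0.39 to 0.20), and Itgad, which encodes the CD11d chain, by -0.05 (-0.36 to 0.27) at dim signals in both diets. In the RefSeq annotation Itgam, Itgax and Itgad follow each other on chromosome 7 with no other coding gene in between, so a pair of adjoining genes rose while the next, Itgad, did not pass.

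Macrophage markers were also higher in MCD diet livers. Of 8 macrophage markers 7 rose and 0 fell (8 and 0 at an unadjusted p under 0.05), with summed linear signals of 1439 to 1975 in MCD diet livers, against 429.9 to 432.7 in normal diet livers. All 6 markers of lipid-associated macrophages rose, with sums of 1164 to 1620.3 in MCD diet livers, against 104.9 to 108.6 in normal diet livers. Linear sums weigh the brightest genes most, and Gpnmb alone held most of these MCD diet sums. Its log2 signals were 9.99 and 9.47 in MCD diet livers, against 2.29 and 2.51 in normal diet livers. Of 6 Kupffer cell markers 0 rose and 3 fell, Clec4f, Fcna and Timd4 (0 and 3 at an unadjusted p under 0.05). The others were not called and had overlapping arrays, with differences of 0.64 for Vsig4, 0.32 for Marco and -0.49 for Cd5l. None of the 6 neutrophil, 6 T and NK cell, 4 dendritic and 3 B cell markers measured was called in limma, where 2, 2, 1 and 0 were higher and 0, 0, 0 and 1 lower at an unadjusted p under 0.05. The neutrophil markers were dim, all 6 lying at or below the median signal of all genes in normal diet livers. So did 5 of the T and NK cell, 2 of the B cell and 1 of the dendritic cell markers. The MCD diet arrays also differed from each other in some myeloid transcripts. Replicate 1 exceeded replicate 2 by 0.89 for Itgam, 0.49 for Itgax, 0.34 for Itgal and 0.25 for Itgb2. For Itga4, Itgae, Itgad and Itgb7 replicate 1 lay below replicate 2, by 0.11, 0.60, 0.08 and 0.01. Among macrophage markers the excess of replicate 1 ranged from 0.07 for Mertk to 0.93 for Adgre1, with 0.61 for Cd68. Among neutrophil markers it ranged from -0.05 for Ly6g to 2.25 for the granule gene Ngp. The part of cell numbers in the rises of the leukocyte chains was not tested. Genes that leukocyte integrins bind on other cells rose in 4 of 8 and fell in 0 (4 higher and 1 lower at an unadjusted p under 0.05). Icam1, the ligand of LFA-1 and complement receptor 3, rose by 1.41 ± 0.12. Vcam1, the ligand of VLA-4, rose by 1.04 ± 0.21, and Cdh1, the E-cadherin that CD103 binds, by 1.75 ± 0.34. The normal diet arrays of Cdh1 were 1.10 apart (6.79 and 5.70), so the size of its rise is uncertain. The junction molecule Jam2 rose by 0.92 ± 0.13 (limma adjusted p between 0.002 and 0.0327 for the 4 genes). The list had 2 calls in place of 4 when MCD diet replicate 1 or 2 was left out.

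**Figure D2:**
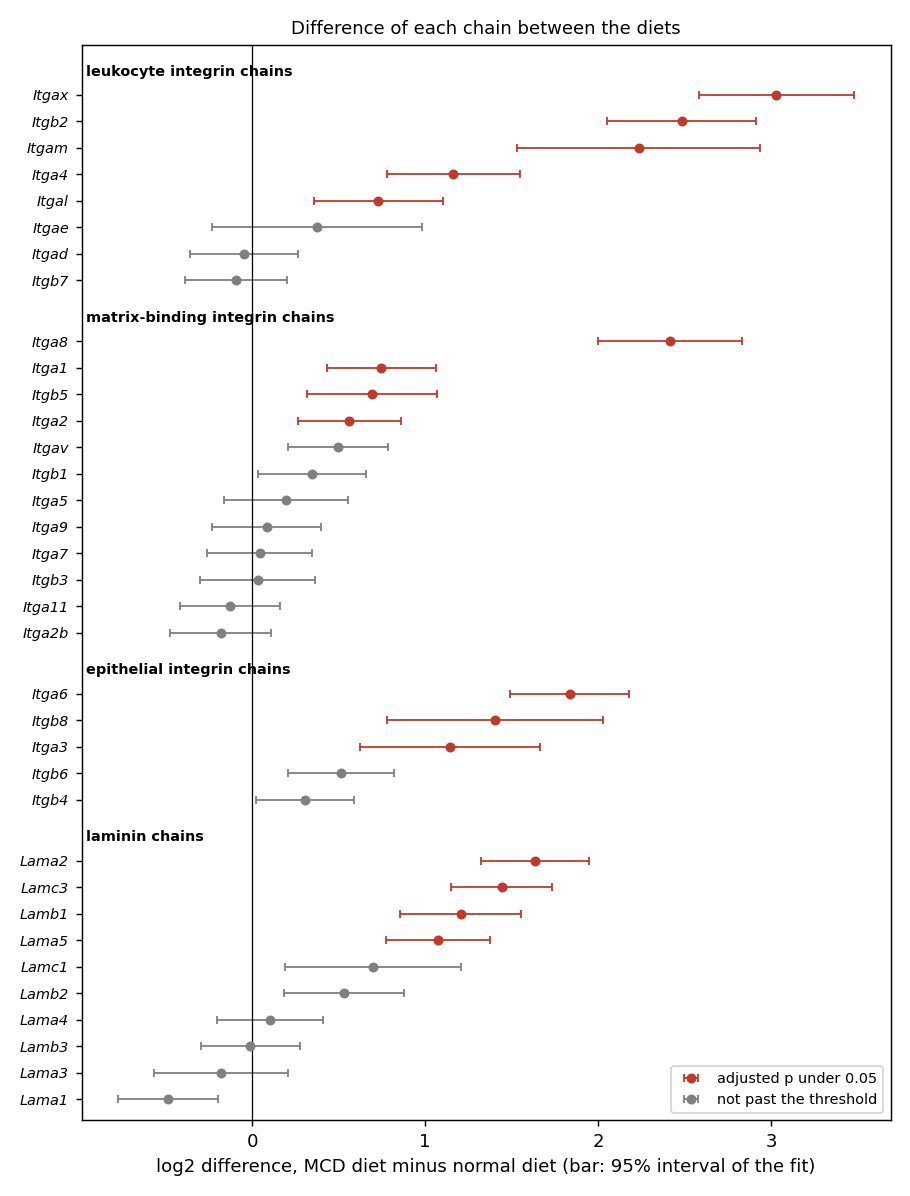
Log2 difference of each chain, MCD diet minus normal diet (x axis), with the 95% interval of the limma fit, by class. Red points passed an adjusted p of 0.05 and grey points did not: 16 of the 35 are red, all to the right of 0, and Lama1 at -0.49 lies farthest to the left.

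Of the 12 chains that bind collagen, fibronectin, vitronectin and other matrix proteins, 4 rose and 0 fell (6 and 0 at an unadjusted p under 0.05). Itga8, which pairs with Itgb1, binds nephronectin and other ligands with an RGD sequence, and is known from stellate cells and smooth muscle, had signals of 6.35 and 6.75 in MCD diet livers, against 4.23 and 4.04 in normal diet livers. The arrays of the diets were more than 2 log2 units apart, and the log2 difference was 2.42 ± 0.17 (5.34-fold; limma adjusted p = 0.00129). Itga1, a collagen receptor chain, had signals of 7.46 and 7.28 in MCD diet livers, against 6.67 and 6.58 in normal diet livers. It rose by 0.75 ± 0.13 (1.68-fold; limma adjusted p = 0.0203). Itga2, the collagen receptor chain whose gene lies next to Itga1 on chromosome 13, had signals of 3.54 and 3.43 in MCD diet livers, against 2.88 and 2.96 in normal diet livers. Its rise of 0.56 ± 0.12 stood close to the threshold (limma adjusted p = 0.0409). Itgb5, the vitronectin receptor beta chain, had signals of 7.60 and 7.62 in MCD diet livers, against 7.09 and 6.74 in normal diet livers, and rose by 0.70 ± 0.15 (limma adjusted p = 0.0434). Its arrays agreed closely within the MCD diet and less so within the normal diet.

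Of the called matrix-binding chains, Itga8 alone kept its call whichever array was left out, where 1 or 2 chains of the class were called in place of 4. With a replicate block 2 were called, Itga8 and Itga1. Itga2 lost its call under 10 of 14 alternatives, including each left-out array (adjusted p 0.0921 to 0.168). The remaining 8 matrix-binding chains did not pass. Itgav, the alpha partner of Itgb5, Itgb6 and Itgb8, came close, with signals of 6.93 and 6.88 in MCD diet livers, against 6.37 and 6.44 in normal diet livers (difference 0.50 ± 0.12, limma adjusted p = 0.0536). A second row of Itgav, at signals of 1.74 and 2.15 in MCD diet livers and 2.05 and 1.95 in normal diet livers, differed by -0.06, so the rows of this gene disagree. Itgb1, the beta chain shared by most matrix receptors, differed by 0.35 (95% interval 0.03 to 0.66, limma adjusted p = 0.166), with both MCD diet arrays above both normal diet arrays. The fibronectin receptor chain Itga5 (0.20, interval -0.16 to 0.56), Itga9, which binds tenascin and VCAM-1 (0.09, -0.23 to 0.40), Itga7, a laminin-binding chain of muscle (0.04, -0.26 to 0.35), and the vitronectin receptor chain Itgb3 (0.03, -0.30 to 0.37) had overlapping arrays. The signs of Itga9, Itga7 and Itgb3 turned under quantile normalization. The collagen receptor chain Itga11 and the platelet chain Itga2b differed by -0.13 (-0.42 to 0.16) and -0.18 (-0.47 to 0.11).

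Beside these chains, stellate and myofibroblast markers rose in 4 of 8 and fell in 0 (7 and 0 at an unadjusted p under 0.05), and summed linear signals of 560.2 to 639.3 in MCD diet livers, against 272.3 to 341.5 in normal diet livers. They included the growth factor Hgf (1.53 ± 0.16), the PDGF receptor Pdgfrb (1.38 ± 0.12), smooth muscle actin Acta2 (1.35 ± 0.31) and the collagen gene Col1a1 (0.98 ± 0.20). Of 3 smooth muscle markers 0 were called, also 0 at an unadjusted p under 0.05, and all 3 were dim in normal diet livers. Within the MCD diet, replicate 2 was the higher for Itga8 (by 0.40), for Acta2 (by 0.93) and for Col1a1 (by 0.55). The other stellate markers varied, and replicate 2 was higher for Des (by 0.38), Hgf (0.15), Reln (0.12) and Pdgfrb (0.09). Replicate 1 was higher for Tagln (by 0.29) and Lrat (by 0.16). The part of stellate cells in the rise of Itga8 was not tested. Of 6 endothelial markers 0 rose and 2 fell, Stab2 and Kdr. Matrix ligands of the integrins rose in 5 of the 10 measured and fell in 1 (6 and 1 at an unadjusted p under 0.05). The RGD protein Mfge8, which bridges dying cells to phagocytes, rose by 3.95 ± 0.30, the RGD-bearing Tgfbi by 1.905 ± 0.14, Svep1, a ligand of the Itga9 chain, by 1.31 ± 0.16 and thrombospondin Thbs1 by 1.20 ± 0.12. Periostin (Postn) fell by 1.11 ± 0.24, and lost its call with a replicate block and when MCD diet replicate 1 or any normal diet array was left out. The abundant hepatocyte products Fn1 and Vtn differed by 0.00 (limma adjusted p = 0.991) and -0.05 (limma adjusted p = 0.844).

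Of the 5 epithelial chains 3 rose and 0 fell, and all 5 had positive differences and an unadjusted p under 0.05. Itga6 encodes the laminin receptor chain that pairs with Itgb4 in hemidesmosomes and with Itgb1 elsewhere. Its signals were 4.94 and 5.21 in MCD diet livers, against 3.22 and 3.27 in normal diet livers. The normal diet arrays almost coincided, and the log2 difference was 1.84 ± 0.14 (3.57-fold; limma adjusted p = 0.00156). Itgb8, which with Itgav releases TGF-beta from its latent complex, had signals of 4.38 and 5.12 in MCD diet livers, against 3.21 and 3.48 in normal diet livers. It rose by 1.40 ± 0.26 (limma adjusted p = 0.0239), with a gap of 0.75 between the MCD diet arrays. Itga3, a receptor chain for the laminins of epithelial basement membranes, had signals of 5.40 and 4.81 in MCD diet livers, against 4.05 and 3.86 in normal diet livers, and rose by 1.14 ± 0.21 (limma adjusted p = 0.0251). Leaving out either normal diet array reduced the class to 1 call, that of Itga6 (adjusted p 0.0924 and 0.0647 for Itgb8, 0.0653 and 0.111 for Itga3), and without MCD diet replicate 1 Itga3 lost its call (0.0638) at a difference of 0.85.

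The 2 epithelial beta chains without a call were dim. Itgb6, the other activator of TGF-beta with Itgav, had signals of 2.63 and 2.59 in MCD diet livers, against 2.02 and 2.17 in normal diet livers (0.51 ± 0.12, limma adjusted p = 0.057), and passed under quantile normalization (0.0398). Itgb4 had signals of 2.96 and 2.92 in MCD diet livers, against 2.64 and 2.63 in normal diet livers (0.31 ± 0.12, limma adjusted p = 0.177). For both of them the MCD diet arrays lay above the normal diet arrays. Bile duct markers rose beside this class in 5 of 6 (0 lower, 5 and 0 at an unadjusted p under 0.05), with summed linear signals of 153.3 to 161.5 in MCD diet livers, against 43.1 to 50.2 in normal diet livers. Epcam rose by 2.35 ± 0.19, Sox9 by 2.003 ± 0.16, Cftr by 0.85 ± 0.15 and Krt7 by 0.79 ± 0.12, Cftr and Krt7 from dim signals. Epcam and Sox9 made up most of the sums. The part of bile duct cells in the rise of the epithelial chains was not tested. Among 5 hemidesmosome genes 2 rose and 0 fell (2 and 0 at an unadjusted p under 0.05). Plec, Krt14 and Col17a1 differed by 0.43, 0.07 and 0.05 without a call, Krt14 and Col17a1 at dim signals with overlapping arrays. The genes that rose were the linker Dst, by 0.73 ± 0.13, and the tetraspanin Cd151, a partner of laminin-binding integrins, by 0.54 ± 0.12 (limma adjusted p = 0.0241 and 0.0462). Leaving out an array left 0 or 1 of them, and a replicate block left 1.

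Laminin chains rose in 4 of 10, and these 4 calls were kept under all 14 alternatives. Lama2, the alpha chain of the laminins of muscle and peripheral nerve, had signals of 3.94 and 4.11 in MCD diet livers, against 2.43 and 2.36 in normal diet livers. It rose from a dim signal by 1.64 ± 0.13 (3.11-fold; limma adjusted p = 0.00162). Lamc3, a gamma chain, had signals of 4.56 and 4.63 in MCD diet livers, against 3.19 and 3.11 in normal diet livers. Arrays within a diet differed by less than 0.1, and the log2 difference was 1.44 ± 0.12 (2.72-fold; limma adjusted p = 0.00197). Lamb1, the beta chain of many laminins, had signals of 4.80 and 5.0005 in MCD diet livers, against 3.80 and 3.59 in normal diet livers, and rose by 1.21 ± 0.14 (limma adjusted p = 0.00574). Lama5, the alpha chain widespread in adult epithelia and vessels, had signals of 4.37 and 4.23 in MCD diet livers, against 3.24 and 3.22 in normal diet livers. It rose by 1.08 ± 0.12 (limma adjusted p = 0.00517).

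The other 6 laminin chains did not pass. Lamc1, the gamma chain of most laminins, had signals of 5.45 and 5.32 in MCD diet livers, against 4.98 and 4.39 in normal diet livers. The spread of the normal diet arrays was wide, and the difference of 0.70 ± 0.21 missed the threshold (limma adjusted p = 0.0988) except without normal diet replicate 1, where it was 0.99 (0.033). Lamb2, the beta chain known from the kidney filter and the neuromuscular junction, differed by 0.53 (95% interval 0.19 to 0.88). Lama4, an endothelial alpha chain, differed by 0.10 (-0.20 to 0.41), a sign that turns under quantile normalization. Lama3 and Lamb3, chains of the laminin of hemidesmosomes, differed by -0.18 (-0.57 to 0.21) and -0.01 (-0.30 to 0.28), with overlapping arrays and signs that turn when an array is left out. Lama1, an alpha chain best known from the embryo, had signals of 2.57 and 2.62 in MCD diet livers, against 3.11 and 3.06 in normal diet livers. Both MCD diet arrays were the lower, and the difference of -0.49 ± 0.12 (limma adjusted p = 0.0567) passed the threshold under quantile normalization (0.049) and under median centring (0.045).

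Basement membrane partners, a list of components and of receptors such as Bcam, rose in 5 of 17 and fell in 0 (6 higher and 3 lower at an unadjusted p under 0.05). Smoc2, a calcium-binding matrix protein, rose by 1.79 ± 0.17, nidogen Nid1, which ties laminin to collagen IV, by 1.39 ± 0.16, the laminin receptor Bcam by 1.27 ± 0.22 and the collagen IV chain Col4a1 by 1.08 ± 0.17. Agrin (Agrn), a laminin-binding proteoglycan, rose as well by 0.66 ± 0.13. The 3 genes lower at an unadjusted p were Col15a1 (-0.64), the other nidogen Nid2 (-0.49) and Col18a1 (-0.42), all without a call. The collagen IV chain Col4a2 differed by 0.16 with overlapping arrays. The median of this list was 0.29, and it had 2 or 3 calls in place of 5 when any array was left out. At the inner side of the membrane, 6 of 22 adhesion adaptors rose and 1 fell (10 and 2 at an unadjusted p under 0.05), with a median of 0.31. The kindlin Fermt1, the form of epithelia, rose by 2.51 ± 0.19, the actin crosslinker Flna by 1.73 ± 0.20, the kinase Src by 0.88 ± 0.18 and Parvg, the parvin of blood cells, by 0.74 ± 0.16. The gene that fell was Bcar1, a docking protein of focal adhesions (by 0.56 ± 0.12, limma adjusted p = 0.0411), and it lost its call with an intensity trend, with or without robust moderation, with a 2-fold minimum, with a replicate block and with any array left out. The call count of the adaptors dropped to 2 without either normal diet array and to 3 without MCD diet replicate 1.

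**Figure D3:**
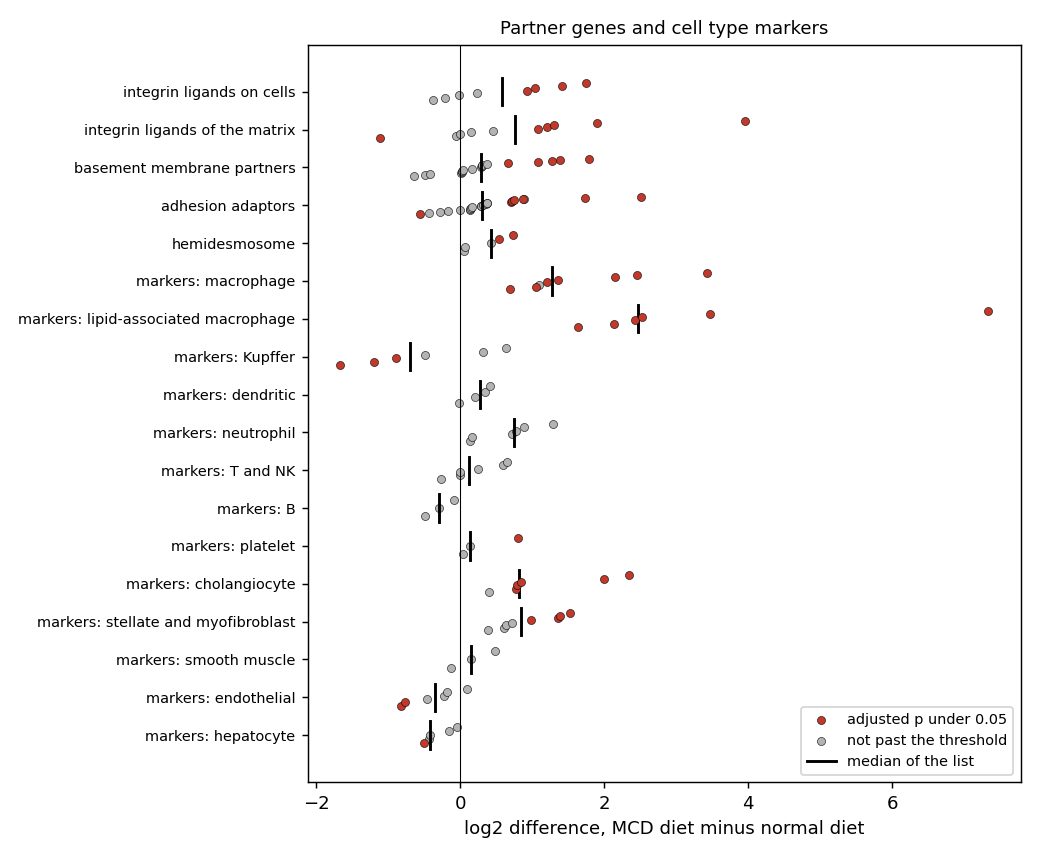
Log2 difference, MCD diet minus normal diet (x axis), of every measured gene in the partner lists and the cell type marker lists (rows). Red points passed an adjusted p of 0.05, grey points did not, and the black bar is the list's median: it is 1.28 for macrophage, 0.82 for bile duct and 0.85 for stellate cell markers, against -0.34 for endothelial and -0.42 for hepatocyte markers.

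**Figure D4:**
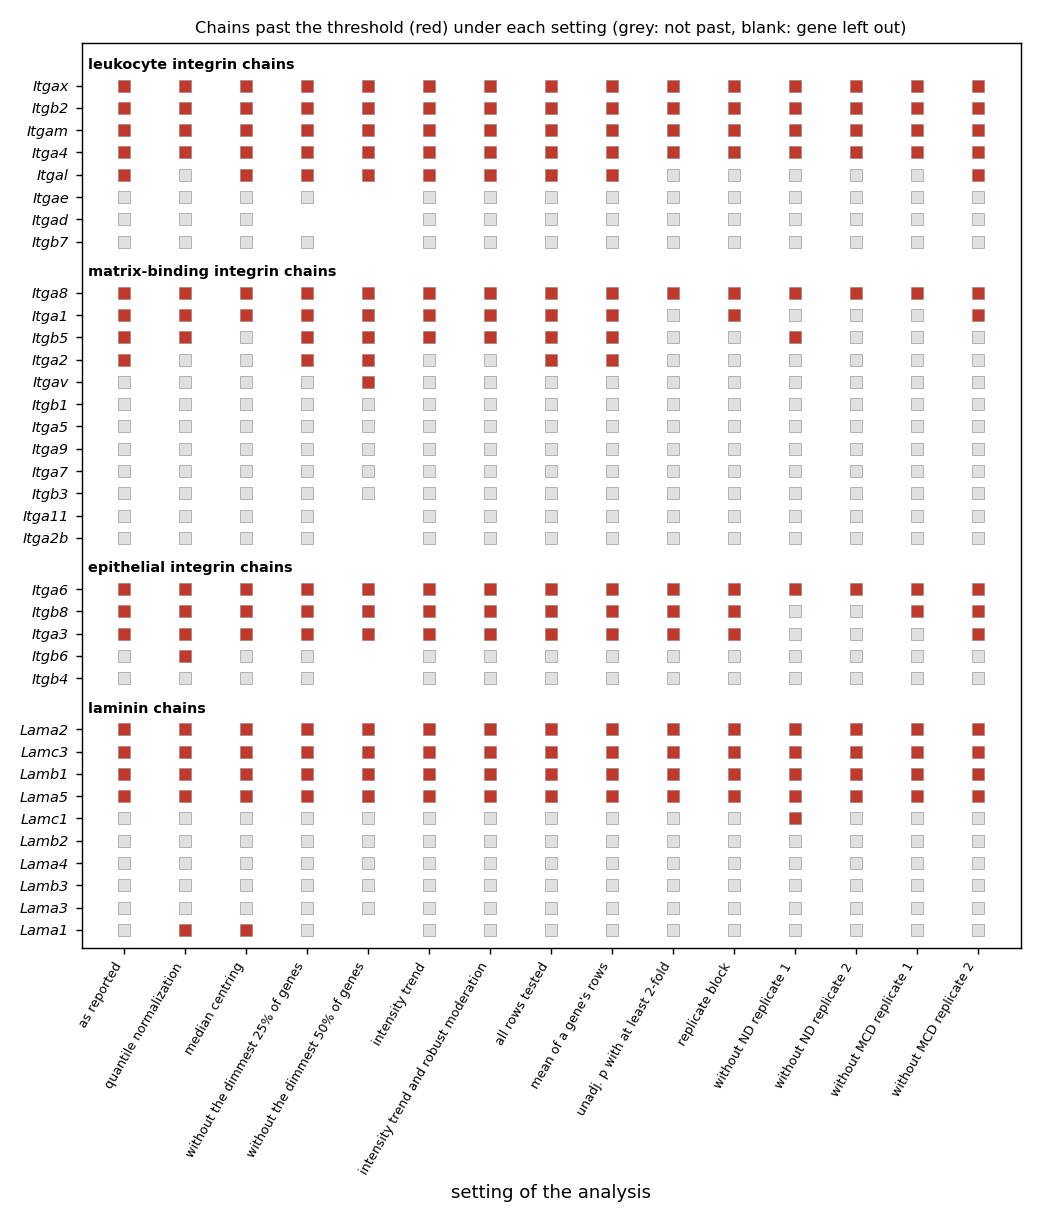
Chains past the threshold (red squares) in the analysis as reported and under each of 14 alternatives (columns), with grey for chains not past it and blanks for genes that a filter left out. Itgax, Itgb2, Itgam, Itga4, Itga8, Itga6, Lama2, Lamc3, Lamb1 and Lama5 are red in every column.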

How the data were processed

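Liver RNA of 2 MCD diet and 2 normal diet samples was labelled and hybridised to Mouse Gene 2.1 ST arrays, per the labels' protocols. The submitters' processing notes name Transcriptome Analysis Console, from which the authors deposited log2 signals. Which version, normalization, summarization and background correction they used, and the base of the logarithm, is not given in the sources used here; log2 was inferred from values between 0.737 and 12.1. No column of per-sample values was left unused. Of 34472 rows, 23521 named exactly 1 gene in the platform annotation, 1814 several and 9137 none, and only the first kind was tested. The brightest row by mean over the 4 arrays stood for each of the 22180 genes. All 35 members matched the RefSeq gene table of GRCm38.p6, used for names and neighbours.

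The diets were compared with limma 3.58.1 in R 4.3.3 (two-sided, diet as the only term, 6.06 moderated degrees of freedom, Benjamini-Hochberg over all genes, adjusted p under 0.05), with no filter. On 20 simulated sets with 200 of 22180 genes changed, this comparison recovered 50% of changes of 1 and 96.8% of changes of 2 on the log2 scale. Of its calls 4.98% were false. The simulated noise was independent, normal and drawn from the variance model of the fit itself. The false share therefore describes the procedure under its own assumptions and is no check of these arrays. The data gave 2214 calls, a larger share than was simulated, so recovery may differ there. The 14 alternatives were other normalizations, filters, moderations, row rules and thresholds, a replicate block and each array left out. The members and gene lists were chosen with earlier results of these data known. Named were all chains and, per partner or marker list, up to 4 called genes with the largest differences; Agrn, Bcar1, Timd4, Fn1, Vtn, Alb, Ttr, Adgre1, Ngp, Cd68 and other genes outside that rule were chosen after their values were seen. Protein sequences were not used here.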

Additional observations from a re-analysis of the deposited data

How the results depend on the processing

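Of the 16 called chains, 10 kept their call and direction under all 14 alternatives, 6 lost it under at least 1 and 0 turned direction; of the 19 others, 4 passed under at least 1 alternative and 7 turned direction, without a call on either side. The count of called chains was 16 and ranged from 10 to 14 with an array left out, and that of all genes was 2214 and ranged from 1050 to 1493, where each left-out array takes a degree of freedom from the fit. With the replicate numbers of the titles as a block, 13 chains and 1950 genes were called, 2 in place of 4 matrix-binding chains and 1 in place of 2 hemidesmosome genes; the deviations of same-numbered samples correlated at 0.0537 across genes, and the labels do not say that a number marks a shared batch or day. With an array left out, called chains numbered 4 to 5 of the leukocyte, 1 to 2 of the matrix-binding, 1 to 3 of the epithelial and 4 to 5 of the laminin class, and called partners 2 to 5 among adaptors, 2 to 3 among basement membrane genes, 2 to 4 among ligands on cells and 0 to 1 among hemidesmosome genes. An unadjusted p with at least 2-fold change gave 1155 genes, 12 chains, 1 matrix-binding chain, 2 adaptors and 0 hemidesmosome genes, and median centring 2 matrix-binding chains and 1 hemidesmosome gene. Class medians moved with the filter on dim genes, which removes members: without the dimmest 50% they were 0.73 for all chains, 2.23 for leukocyte, 0.42 for matrix-binding, 1.40 for epithelial and 0.70 for laminin chains, and without the dimmest 25% 1.16 for leukocyte chains. Quantile normalization gave 0.99 for epithelial and 0.47 for laminin chains, and the cause was not tested. With an array left out the medians were 0.53 to 0.56 for all, 0.85 to 1.24 for epithelial and 0.48 to 0.75 for laminin chains. Directions turned under quantile normalization for Lama4 (-0.0801), Itgad (0.0305), Itga9 (-0.0299), Itga7 (-0.0845) and Itgb3 (-0.0710), and under median centring for Itgb3 (-0.008025). Over the left-out arrays, the difference ranged from -0.0367 to 0.0180 for Lamb3, from -0.363 to 0.00532 for Lama3, from -0.128 to 0.0362 for Itgad, from -0.0291 to 0.117 for Itga7 and from -0.0673 to 0.136 for Itgb3. For these turns too the cause was not tested.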
